A study of Mus musculus with 6 samples.

Results

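Mir150 is the gene of the microRNA miR-150, and it was the miRNA gene with the most counts in every small RNA library of this study. It was taken by its name in the deposited miRNA table, as 1 of 1241 features of that table and 1 of the 54547 genes in the count files. Mir150 (ENSMUSG00000065495.1) spans 65 bases on the plus strand of chromosome 7, from 45121757 to 45121821 in GRCm38, and the annotation places no other gene over these bases on either strand. Over the 6 libraries it held 8279 of the 15741 counts on miRNA features, or 52.6%, and 0.608% of the counts on all genes.

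Small RNA was sequenced from regulatory T (Treg) cells, the Foxp3-expressing CD4+ T cells that restrain immune responses, sorted by flow cytometry from mouse thymus. The comparison was between wild-type (WT) mice, which carry no deletion, and miR-181a/b-1-/- mice, which lack the genes Mir181a-1 and Mir181b-1 in all their cells. Both groups were labelled C5BL6/N and 7 weeks old, each group has 3 libraries, and each library came from 3 pooled thymi according to the methods. Nothing in the labels names the animals, so p-values measure the spread between these libraries. The labels and the methods give the thymus as source, whereas the study's results text speaks of peripheral Treg cells, and the labels were followed. The question was which miRNAs differ between Treg cells with and without these 2 genes, and Mir150 is described here across the 6 libraries.

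A miRNA gene is transcribed as a hairpin, which is cut to a short duplex, and a mature strand of that duplex guides Argonaute proteins to messenger RNAs. Pairing runs mainly through the seed, bases 2 to 8 of the strand, and lowers the stability or translation of the target. miR-150 is abundant in mature lymphocytes, is low in their progenitors, and is known for repressing Myb, a transcription factor of lymphocyte development. The hairpin of Mir150 gives the strands miR-150-5p and miR-150-3p. Counts were made per gene, so the strands of a hairpin were not separated. The strand below lies at chr7:45121798-45121819 on the plus strand of GRCm38 and is shown because it is a product of the dominant gene, with the strands of Mir423 and Mir342, the miRNA genes next to it in mean share of the miRNA counts. Capitals mark the seed, and the sequences are those of RefSeq for GRCm38.p6.
miR-150-3p: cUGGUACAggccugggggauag
miR-423-5p: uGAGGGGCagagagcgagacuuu
miR-423-3p: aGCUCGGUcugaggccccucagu
miR-342-5p: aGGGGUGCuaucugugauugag
miR-342-3p: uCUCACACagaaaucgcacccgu
No seed was shared among these 5 strands. The seed of miR-150-3p occurred in 1 of the 1738 mature strands in the RefSeq table, which is its own. The seed of miR-423-5p occurred in 2 of them. These statements cover the printed strands and not miR-150-5p, which is the strand known for repressing Myb. Of the 22 bases of miR-150-3p, 63.6% were G or C.

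The libraries held 168293 to 307840 gene counts and 1359 to 3422 miRNA counts, and 75.7% to 80.3% of the records were given to no gene. Of the deleted genes, Mir181a-1 was counted 0, 1 and 0 times in WT and 0 times in each knockout library, and Mir181b-1 0 times in all 6. The genotype of a library could therefore not be read from the deleted genes. Of the 7 Treg markers, 5 had at least 10 counts in at least 3 libraries. Itgae had 18 counts over all libraries and Ctla4 only 1, in WT replicate 3. Foxp3, the defining transcription factor, had 25, 26 and 23 counts in WT and 19, 17 and 39 in the knockout. The summed level of the 7 was 98.0 to 103 per 100000 gene counts in WT and 89.0 to 112 in the knockout. The 6 T cell markers, all of which were tested, summed to 96.6 to 127 per 100000 gene counts in WT and 73.1 to 109 in the knockout. Markers of mature or recirculating T cells stood at 87.8 to 94.9 in WT and 74.9 to 110 in the knockout on the same scale, with none of the 7 at 0. B cell markers were at 3.28 to 5.86 in WT and 2.92 to 5.13 in the knockout, with Cd79a and Ms4a1 at 0. Ighm held 29 of their 31 WT counts and 20 of their 27 knockout counts. The 6 myeloid markers were at 0 in WT and at 0 to 2.05 in the knockout, and all 6 erythroid markers at 0.

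Mir150 took the largest share of the miRNA counts in all 6 libraries and stood well above every other miRNA gene in each. WT replicates 1, 2 and 3 had 1748, 1769 and 1482 Mir150 counts, and the knockout replicates, in the same order, had 904, 579 and 1797. As a share of the miRNA counts, this was 51.9% (95% Wilson interval 50.2% to 53.6%), 57.6% (55.9% to 59.4%) and 54.7% (52.8% to 56.6%) in WT. In the knockout it was 49.8% (47.5% to 52.1%), 42.6% (40.0% to 45.3%) and 52.5% (50.8% to 54.2%). Knockout replicate 2 was lowest, and knockout replicate 3 lay above WT replicate 1, so the genotypes overlapped. The share averaged 54.7% ± 2.87 in WT and 48.3% ± 5.13 in the knockout (SD, n = 3), a difference of -6.43 percentage points (knockout minus WT; exact two-sided permutation test, p = 0.2). Without knockout replicate 2 the difference was -3.58 points. With the feature Mir6236 left out of the miRNA counts it was -4.73 points (exact permutation p = 0.2). The smallest p that 3 against 3 libraries allow is 0.1. Intervals cover counting error only, since PCR copies without molecular identifiers are not independent molecules.

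As a share of all gene counts, Mir150 was lower in every knockout library than in any WT library. The share was 0.787% (Wilson interval 0.751% to 0.825%), 0.788% (0.752% to 0.825%) and 0.608% (0.578% to 0.640%) in WT. It was 0.537% (0.503% to 0.573%), 0.297% (0.274% to 0.322%) and 0.584% (0.557% to 0.611%) in the knockout. WT replicate 3 and knockout replicate 3 came closest, with intervals that overlapped, and knockout replicate 2 stood far below the rest. The means were 0.728% ± 0.103 in WT and 0.473% ± 0.154 in the knockout (SD, n = 3), a log2 ratio of -0.62 for knockout against WT, and the exact permutation test gave p = 0.1, the smallest the design allows. Without knockout replicate 2 the log2 ratio was -0.38. Of the 1391 genes with at least 10 counts in at least 3 libraries, 4.67% were likewise lower in every knockout library by this share. In these bulk samples, fewer cells of a type and less RNA per cell cannot be told apart.

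**Figure D1:**
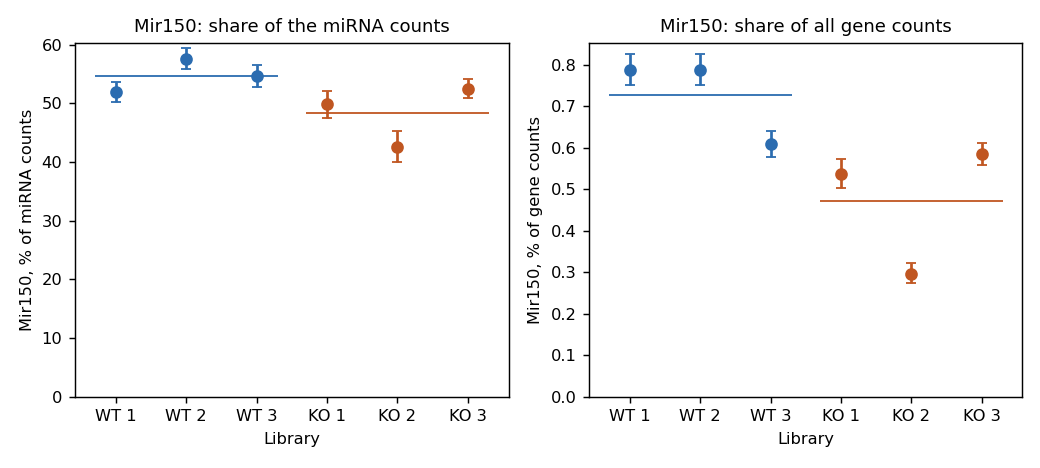
Mir150 in each library as a percent of the miRNA counts (left) and of all gene counts (right), with points for libraries and bars for 95% Wilson intervals. By miRNA counts knockout replicate 3 (52.5%) lies above WT replicate 1 (51.9%), and by gene counts the highest knockout library (0.584%) lies below the lowest WT library (0.608%).

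The remaining miRNA features were set beside Mir150 on the same scale. Without Mir150 they took 0.730%, 0.579% and 0.504% of the gene counts in WT and 0.541%, 0.400% and 0.528% in the knockout. These groups overlapped, at 0.604% ± 0.115 and 0.489% ± 0.0779 (SD, n = 3; exact permutation p = 0.3), a log2 ratio of -0.30. All miRNA features together took 1.33% ± 0.205 of the gene counts in WT and 0.962% ± 0.230 in the knockout (SD, n = 3), with WT replicate 3 and knockout replicate 3 level within counting error, and 69.0% of that difference lay on Mir150. Of the 23 miRNA features with enough counts, 3 had a share of the gene counts lower in every knockout library, Mir150, Mir15b and Mirlet7f-1, where 4.67% of all genes tested did. Mir15b had 162 counts over the 6 libraries and Mirlet7f-1 only 45. By share of the miRNA counts, 1 of the 23 (4.35%) was lower in every knockout library, which was Mir15b.

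The difference in the share of all gene counts was in the same direction with other denominators. Small nucleolar RNAs (Snord genes), which guide chemical modification of ribosomal RNA, held 31.9% ± 1.09 of the gene counts in WT and 30.8% ± 1.11 in the knockout (SD, n = 3) and overlapped between the genotypes. Per 1000 Snord counts, Mir150 had 24.0, 24.5 and 19.8 counts in WT and 17.7, 9.86 and 18.2 in the knockout, again without overlap (log2 ratio -0.58; exact permutation p = 0.1). With the 10 most counted genes left out of the total, the log2 ratio was -0.63. Both denominators are parts of the same gene counts, so these values are not independent of the share of all gene counts. The deposited miRNA table gives another scale, on which the authors divided each library's counts by 1 size factor. The factor was lower in knockout replicate 2 (0.619) than in knockout replicate 1 (0.876), in the order of their miRNA counts and not of their gene counts. On it, Mir150 stood at 1412, 1615 and 1323 in WT and at 1032, 935 and 1152 in the knockout. These values did not overlap between the genotypes and gave a log2 ratio of -0.48.

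Between replicate libraries, the coefficient of variation of the Mir150 share of gene counts was 14.2% in WT and 32.6% in the knockout, where counting alone would give 2.46% and 3.36%. The share of miRNA counts varied less, with 5.24% in WT and 10.6% in the knockout. Mir150 is itself a large part of that total, which makes both its variation and its difference smaller. As a percent of the miRNA counts other than Mir150, it stood at 122 ± 14.1 in WT and 94.7 ± 18.6 in the knockout (SD, n = 3). These groups overlapped, with a log2 ratio of -0.36 (exact permutation p = 0.2).

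By count, Mir150 ranked 25, 25 and 25 among all genes in WT and 27, 40 and 27 in the knockout. Divided by annotated exonic length it ranked 16, 16 and 16 in WT and 19, 30 and 17 in the knockout. The genes with the most counts were the mitochondrial ribosomal RNA genes mt-Rnr2 (a mean share of 10.3% of the gene counts) and mt-Rnr1 (5.85%), followed by Snord82 (4.78%). Knockout replicate 2 was the library in which Mir150 ranked lowest on both scales.

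Among miRNA genes, the gap between Mir150 and the next one was wide in each library. Mir150 had 6.52, 8.11 and 9.04 times the counts of the next miRNA gene in WT and 6.90, 4.49 and 10.1 times in the knockout. That gene was Mir342 in WT replicates 1 and 2, Mir423 in WT replicate 3 and knockout replicates 1 and 2, and Mir23a in knockout replicate 3. The identity of the leading gene was thus the same in all 6 libraries, whereas 3 different genes came next. Averaged over libraries, Mir150 held 51.5% of the miRNA counts, Mir423 6.32%, Mir342 5.60%, Mir328 4.64%, Mir23a 4.19% and Mir6236 3.84%.

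The 6 leading features together held 75.0% to 79.0% of the miRNA counts of a library. The 5 after Mir150 held 24.1%, 21.4% and 21.3% in WT and 25.5%, 32.4% and 22.97% in the knockout. Knockout replicate 2, with the lowest Mir150 share, had the highest share on these 5. The rest was spread over 70 to 99 other features with a count.

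**Figure D2:**
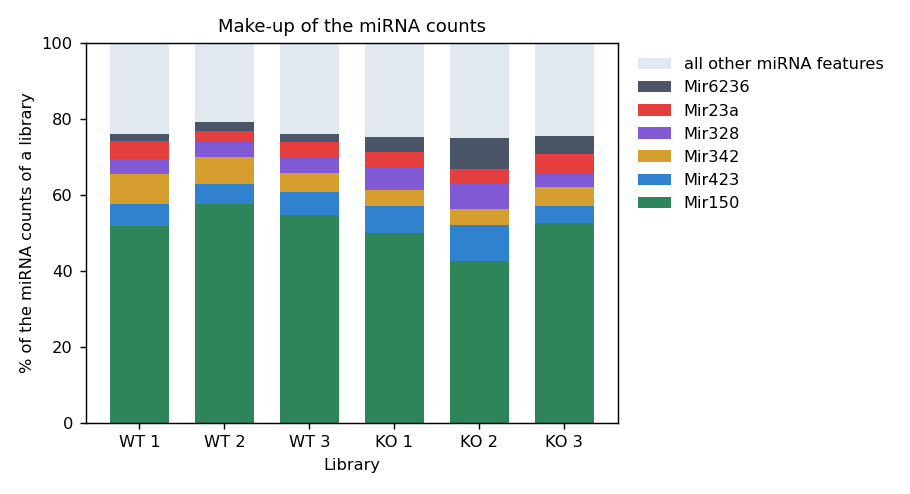
Stacked bars of the miRNA counts of each library, in percent, split into the 6 miRNA features with the highest mean share and all others. Mir150 is the largest block in every bar, from 42.6% in knockout replicate 2 to 57.6% in WT replicate 2.

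Ratios of Mir150 to each of these 5 genes do not depend on a library total. Mir150 had 9.30, 11.2 and 9.04 counts per Mir423 count in WT and 6.90, 4.49 and 11.8 in the knockout, with the highest and the lowest value both in the knockout. Per Mir342 count it had 6.52, 8.11 and 11.2 in WT and 11.6, 9.98 and 10.3 in the knockout, which also overlapped. The mean log2 ratio differed between knockout and WT by -0.45 for Mir423, 0.33 for Mir342, -0.52 for Mir328 and -0.36 for Mir23a, with exact permutation p-values of 0.4, 0.3, 0.4 and 0.2. The sign was therefore not the same for all of them. The ratio to Mir6236 was 27.3, 26.8 and 26.9 in WT and 12.2, 5.22 and 11.2 in the knockout, a log2 difference of -1.60 without overlap (exact permutation p = 0.1). After Benjamini-Hochberg adjustment over the 5 ratios, each of these permutation p-values was 0.4.

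A fit across features gave Mir150 a negative fold change whose size depended on the reference. Among the 23 miRNA features with enough counts, edgeR's quasi-likelihood test with TMM normalization gave a log2 fold change of -0.22 (SE 0.23, 95% interval -0.68 to 0.23) for knockout against WT, with a Benjamini-Hochberg adjusted p of 0.763. In that test 1 of the 23 features (4.35%) passed an adjusted p of 0.05, Mir6236, with a log2 fold change of 1.37 (SE 0.34, adjusted p = 0.00228). Whether the counts on Mir6236 come from a mature miRNA was not tested. The call of Mir6236 was lost without WT replicate 1, without WT replicate 2 and without the count filter. Among all 1391 genes the same test gave Mir150 a log2 fold change of -0.60 (SE 0.26, 95% interval -1.13 to -0.06), an unadjusted p of 0.0298 and a Benjamini-Hochberg adjusted p of 0.896. There 0 genes passed (0%), 37 were lower and 35 higher at an unadjusted p under 0.05, and 65 were lower in every knockout library by share. DESeq2 also passed 0 genes, with 11 lower and 13 higher at an unadjusted p under 0.05, and gave Mir150 a log2 fold change of -0.58. Mir150 lay at the 5.32 percentile of fold changes over all genes tested.

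Individual libraries moved these values. Without knockout replicate 2, the log2 fold change was -0.06 among miRNA features and -0.37 among all genes. Without knockout replicate 3, it was -0.89 among all genes, and edgeR's quasi-likelihood test gave an unadjusted p of 0.000394 and an adjusted p of 0.0968. Among miRNA features, the value was -0.38 without WT replicate 2, -0.34 without WT replicate 3 and -0.38 without knockout replicate 3. The value was negative under each of the 12 alternatives for both references, from -0.54 to -0.05 among miRNA features and from -0.89 to -0.37 among all genes, with adjusted p-values above 0.05 throughout.

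**Figure D3:**
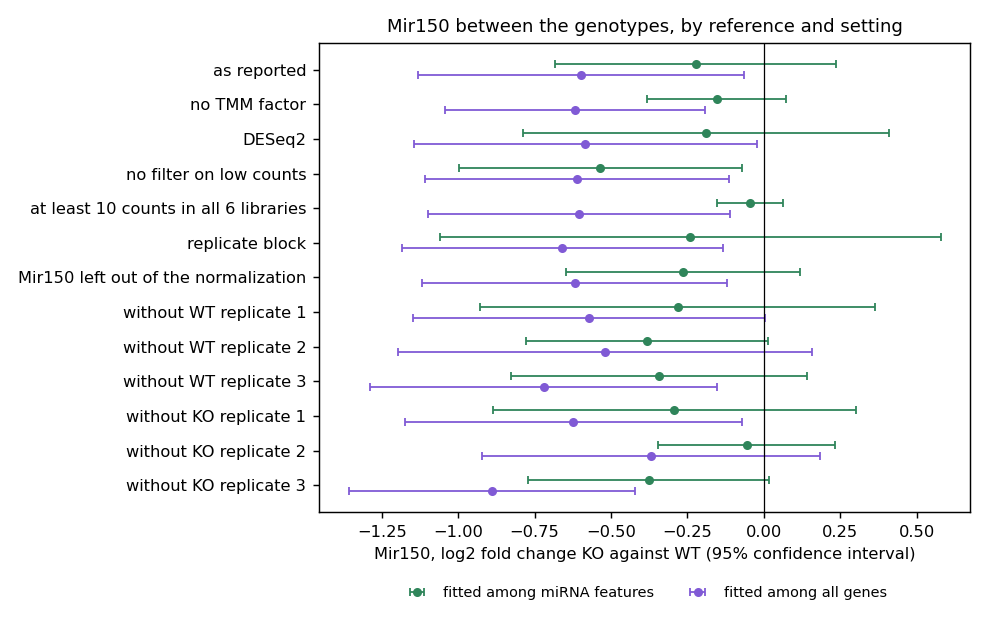
Log2 fold change of Mir150, knockout against WT, fitted among miRNA features and among all genes under each setting, with bars for 95% confidence intervals. All points lie below 0, from -0.54 to -0.05 among miRNA features and from -0.89 to -0.37 among all genes.

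Markers of double-positive thymocytes, the immature stage before the Treg lineage, had few counts. Their summed level was 2.05 to 4.01 per 100000 gene counts in WT and 5.13 to 8.91 in the knockout, from 8, 9 and 5 counts in WT and 15, 10 and 17 in the knockout. The genotypes did not overlap and the sums were not tested. Themis, which other T cells also express, held 13 of the 22 WT counts and 23 of the 42 knockout counts, and without it the levels overlapped, at 0.410 to 2.67 in WT and 2.60 to 3.08 in the knockout. None of the 8 genes passed the count filter, and Rag2 and Ptcra were at 0 throughout. miR-150 is lower in immature than in mature T cells as background, and the part of these markers in the Mir150 values was not tested. Nor was that of the 6 T cell markers, whose log2 fold changes among all genes ran from -0.46 to -0.08, where the median of all genes tested was -0.00 and 0% of all genes passed.

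Among miRNA genes that mark blood lineages, Mir142, expressed throughout haematopoietic cells, had 58, 69 and 33 counts in WT and 19, 27 and 80 in the knockout. Mir146a, a regulator of inflammatory signalling, had 46, 20 and 14 counts in WT and 11, 8 and 31 in the knockout. Both overlapped between the genotypes, as Mir150 did by count. Mir223 of myeloid cells, Mir451a and Mir144 of erythroid cells, and Mir155 of activated lymphocytes were at 0 in every library. Mir223 and Mir155 lie in exons of other genes on the same strand, where reads were not counted, so their zeros do not measure their RNA. Mir142 and Mir451a each have an annotated miRNA gene on the other strand.

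Over the 6 libraries, the miRNA genes most like Mir150 were Mirlet7g, Mir342 and Mirlet7f-1, with Mir15b next. Mirlet7f-1 had 45 counts in all, where Mirlet7g had 421, Mir342 929 and Mir15b 162, so its values rest on few counts. On the log2 share of the gene counts, with 0.5 counts added, Pearson's r with Mir150 was 0.936 for Mirlet7g, 0.928 for Mir342, 0.891 for Mirlet7f-1 and 0.887 for Mir15b (Spearman's rho 0.886, 0.886, 0.829 and 0.886). Other let-7 genes lay lower, at 0.870 for Mirlet7f-2, 0.772 for Mirlet7c-1 and 0.691 for Mirlet7a-2. Over the 22 other features with enough counts, 19 had a positive r and the median was 0.678, so a positive value was common to most miRNA genes on this scale, on which miRNA genes of a library share a total. With the counts on other miRNAs as the total, r was 0.756 for Mirlet7g, 0.765 for Mir342, 0.901 for Mirlet7f-1 and 0.656 for Mir15b, and Mir92-2, at 0.777, came second. Without knockout replicate 2 and WT replicate 2, the libraries farthest from the median of Mir150, r was 0.984 for Mirlet7g, 0.984 for Mir342, 0.944 for Mir15b and 0.587 for Mirlet7f-1. Mir6236 was least like it (r = -0.704, rho = -0.714). Without the same libraries its r was -0.500, and Mir669c, at -0.913, was lowest. These are descriptions of 6 libraries in 2 genotypes.

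The neighbourhood of Mir150 on chromosome 7 holds a ribosomal protein gene and snoRNA genes, and none of those tested passed the test between the genotypes. The 17 annotated genes examined within 50 kb lie 5 on the plus strand and 12 on the minus strand. Of these, 4 had enough counts to be tested, 7 had fewer and 6 were at 0 in all libraries. EdgeR's quasi-likelihood test called 0 of the 4 at an adjusted p of 0.05 (0% of all genes were called) and 0 at an unadjusted p under 0.05, with Benjamini-Hochberg adjusted p-values of 0.980 to 0.998.

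Closest on the plus strand is Gm45552, annotated as antisense and 96 bases downstream, which had 1, 1 and 0 counts in WT and 0 in each knockout library. On the scale used for the neighbours, counts per 100000 gene counts, Mir150 stood at 728 ± 103 in WT and 473 ± 154 in the knockout (SD, n = 3), with a log2 fold change of -0.60 among all genes. Differences in fold change between Mir150 and its neighbours were not tested.

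Rpl13a, a protein of the large ribosomal subunit 3737 bases away, had 13, 12 and 16 counts in WT and 12, 8 and 17 in the knockout (log2 fold change -0.07, SE 0.34). Within Rpl13a, outside its exons, lie the box C/D snoRNA genes Snord35a, Snord34 and Snord32a, which had the most counts in the neighbourhood. Snord34 had 3338 ± 337 counts per 100000 gene counts in WT and 2801 ± 272 in the knockout (SD, n = 3; log2 fold change -0.25, SE 0.19). Snord35a had 1378 ± 82.2 and 1392 ± 127 (0.04, SE 0.21), and Snord32a 3503 ± 128 and 3473 ± 219 (0.01, SE 0.19). Each of the 4 tested neighbours overlapped between the genotypes in its share of gene counts, and 4.67% of all genes tested were lower in every knockout library, so nothing is read from this about the neighbourhood. Rpl13a, Snord33, Mir5121 and Gm45713 share exon bases on the same strand, and since reads on more than 1 gene were not counted, the counts of Rpl13a are a part of its reads and the zeros of the other 3 do not measure their RNA. Snord35b, which shares bases with Gm45552 on the other strand, was at 0, as were Fcgrt and Slc17a7.

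**Figure D4:**
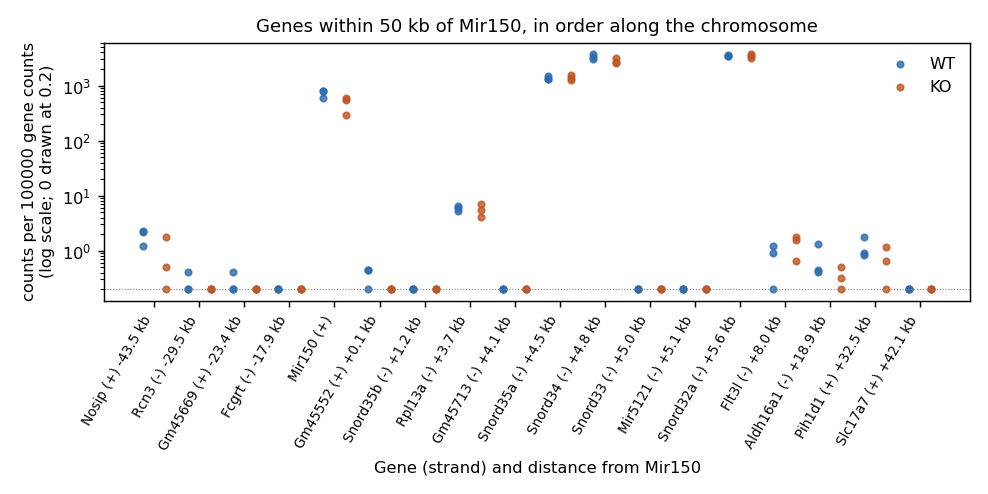
Counts per 100000 gene counts, on a log scale with 0 drawn at 0.2, for Mir150 and the genes examined within 50 kb in their order along the chromosome, with 1 point per library coloured by genotype. Mir150 and the 3 Snord genes stand highest, and the WT points of Mir150 lie above its knockout points.

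Genes reported as targets of miR-150 were read for the RNA fragments that small RNA libraries hold, which are not a measure of mRNA level. Myb (chromosome 10, 21124935 to 21160984, minus strand) had 7, 17 and 6 counts in WT and 7, 10 and 5 in the knockout. WT replicate 2 was highest, and the genotypes overlapped. Per 100000 gene counts this was 4.40 ± 2.77 in WT and 3.64 ± 1.81 in the knockout (SD, n = 3), a difference of -0.759 (exact permutation p = 0.8), and Myb did not pass the count filter. The difference turned positive without WT replicate 2 (0.829) or without knockout replicate 3 (0.248), so no direction can be read for Myb at this depth.

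Of the 9 target genes examined, 4 had enough counts and 0 of these 4 passed an adjusted p of 0.05, where 0% of all genes did. Foxp1, a transcription factor of T cell quiescence, had 30, 32 and 36 counts in WT and 38, 28 and 32 in the knockout (log2 fold change 0.11, SE 0.30). Cbl, a ubiquitin ligase that dampens T cell receptor signalling, had 17, 9 and 11 in WT and 8, 12 and 19 in the knockout (0.14, SE 0.36). Cxcr4, a chemokine receptor, and Igf1r, a growth factor receptor, had log2 fold changes of 0.38 (SE 0.44) and 0.63 (SE 0.51). Each of the 4 overlapped between the genotypes by count, and edgeR's quasi-likelihood test gave each a Benjamini-Hochberg adjusted p of 0.980. Their median log2 fold change was 0.26, where that of all genes tested was -0.00.

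The other listed genes had few counts. Mtor, the kinase that couples nutrients to growth, had 1 to 3 in every library. Zeb1, a zinc finger repressor, had 1, 10 and 12 in WT and 7, 4 and 9 in the knockout. Notch3, a receptor of thymocyte development, and Egr2, a factor induced by T cell receptor signals, were at 0 in all 6, which allows up to 3 counts in each library. Summed over the 9 genes, the level per 100000 gene counts was 34.3 ± 3.72 in WT and 38.0 ± 7.45 in the knockout (SD, n = 3), with overlap. The difference of 3.68 ranged from 0.385 without knockout replicate 1 to 7.73 without knockout replicate 3.

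**Figure D5:**
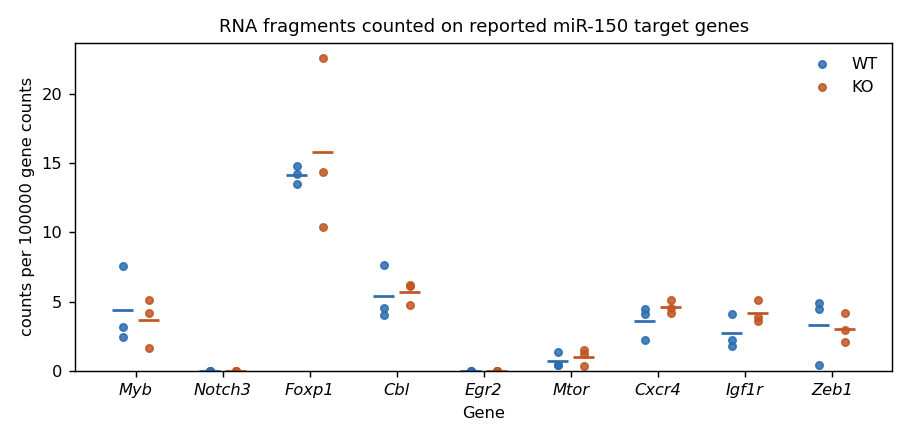
Counts per 100000 gene counts on the 9 reported target genes examined of miR-150, with 1 point per library coloured by genotype. Foxp1 carries the most counts, Notch3 and Egr2 lie at 0, and WT and knockout points overlap for Myb, at 4.40 ± 2.77 in WT and 3.64 ± 1.81 in the knockout.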

How the data were processed

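Small RNA was analysed in 3 WT and 3 miR-181a/b-1-/- libraries of sorted thymic Treg cells, grouped by their labels. Per the methods, the authors trimmed reads, removed ribosomal RNA with Bowtie 2, aligned with STAR and counted with HTSeq. The deposited counts per gene used here are without normalization. GRCm38.p6 comes from the submitters' processing notes; the annotation release and strand setting are not given in the sources used here. Reads on several places or genes were not counted, which can lower genes with copies or overlaps. In the deposited miRNA table, the signal columns are the authors' counts divided by 1 size factor per library, which was checked. Its fold changes, p-values and test statistics come from the authors' comparison and were not used.

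Of 54547 genes, 53620 matched GENCODE vM21 (GRCm38), which gave coordinates. Records given to no gene stayed out of library sizes. The miRNA features are those of the authors' table, of which GENCODE vM21 types 1178 of 1241 as miRNA, and 178 had a count. edgeR 4.0.16 (quasi-likelihood test, TMM, at least 10 counts in at least 3 libraries, Benjamini-Hochberg adjustment) ran in R 4.3.3, and exact permutation tests and 95% Wilson intervals in SciPy 1.17.1 with Python 3.11.15. Standard errors follow from the fold change and the F statistic. Alternatives were DESeq2 1.42.0, other filters and normalizations, other denominators, each library left out and a replicate block. A denominator without Mir6236, the deposited normalized values and a thymocyte list without Themis were added after seeing the data. Named genes were Mir150, its reported targets, genes within 50 kb, the 5 miRNA genes next in mean share, those most and least like Mir150, and markers. A few listed genes are not reported here. The members and lists were chosen with earlier results of these data known. The seed of miR-150-5p and its sites were not analysed here.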

Additional observations from a re-analysis of the deposited data

How the results depend on the processing

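Mir150 was lower in the knockout, in both shares and in both fits, under every alternative run. Leaving out libraries, with the smallest values without knockout replicate 2, gave -8.53 to -3.58 percentage points for the share of miRNA counts, -0.315 to -0.167 for the share of gene counts, and log2 fold changes of -0.38 to -0.06 among miRNA features and -0.89 to -0.37 among all genes. The number of miRNA features higher in the knockout at an adjusted p of 0.05 (1, Mir6236) became 0 without a filter and ranged from 0 to 1 with libraries left out, with 0 without WT replicate 1 or 2. Among all genes, 0 passed, but 1 lower and 7 higher did without a filter, and leaving out libraries gave 0 to 1 lower and 0 to 8 higher. The difference in Myb (-0.759) ranged from -1.72 to 0.829, turning positive without WT replicate 2 (0.829) or knockout replicate 3 (0.248). The cause was not tested. Libraries with the same replicate number deviated together with correlations of 0.231, 0.0812 and 0.182 over 1391 genes, so the numbers were not taken as pairs, though each library correlated best with its own number. With a replicate block, the log2 fold change of Mir150 was -0.24 (edgeR adjusted p = 0.983) among miRNA features and -0.66 (0.682) among all genes. Depth limits Myb and most listed targets, which had at most 38 counts in a library, more than Mir150.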
